A study of Mus musculus with 4 samples.

Results

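*Sox9*, *Sox5* and *Sox6*, the Sox trio of the cartilage lineage, and 5 genes of the cartilage matrix and growth plate, *Acan*, *Comp*, *Matn1*, *Hapln1* and *Pthlh*, were examined for Runx2 binding in cells that become osteoblasts. The 8 genes are 8 of 22367 annotated protein-coding genes. They were named as a pathway and not by a rule on measured values, though earlier results of these data were known. Each gene was given a window, its annotated gene body and 50 kb on either side, and every Runx2 peak with 1 bp or more in the window was counted for it. The windows held 27 of the 25457 Runx2 peaks of day 0, 114 of the 60596 of day 9 and 56 of the 40330 of day 28. Merged across time points, these peaks formed 126 of the 67703 regions of the genome with a peak on at least 1 of the 3 days.

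The cells were MC3T3-E1 subclone 4, a preosteoblast line derived from mouse calvaria and labelled as strain C57BL/6. Chromatin was immunoprecipitated with the M70 Runx2 antibody in proliferating preosteoblasts (day 0), in matrix-depositing osteoblasts (day 9) and in mineralizing cells (day 28), and differentiation was induced with ascorbic acid and beta-glycerophosphate. Input DNA came from matrix-depositing cells without antibody. The authors pooled 2 biological replicates of each day before calling peaks and deposited 1 list per day, so differences between days carry no replicate error and no test was made. The lists hold no read counts, so the depth behind each peak is not known from them. The paper lists the most raw reads for day 0 and the fewest for day 28. All 3 days come from the same subclone, and no expression values were analysed here, so the labelled cell type was not checked against RNA of its markers.

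Sox9, an HMG-box transcription factor, directs mesenchymal cells into the cartilage lineage, and Sox5 and Sox6, which are closely related to each other, work with it to switch on cartilage matrix genes. Runx2 drives osteoblast formation and also the late maturation of cartilage cells, in which Sox9 and Runx2 are known to oppose each other. Acan, Comp, Matn1 and Hapln1 build the cartilage matrix, and Pthlh encodes the secreted signal that delays cartilage cell maturation. MC3T3-E1 cells are of the bone lineage, a fate other than that of the cells in which these genes are best known.

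A score accompanies each peak. It is 10 times the negative log10 of the peak caller's p-value, starts at 100 in each list, and depends on read depth. For this reason a peak was ranked by its percentile among all peaks of its own list, and scores are given as values but not ranked between days, except where a fixed score cut is named. A score of 3100 is shared by 192, 2699 and 1468 peaks in the lists of days 0, 9 and 28, which have no order among themselves. The highest score, 3233.06, is the same in each list. Whether peaks at 3100 stand below those with higher scores was not tested, so percentiles at the top of a list give no firm order. Positions refer to mouse assembly mm9 (NCBIM37) and are counted from 1.

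The number of Runx2 peaks at the cartilage genes was largest at day 9. *Sox9* had 4 peaks in proliferating cells (day 0), 10 in matrix-depositing cells (day 9) and 6 in mineralizing cells (day 28). *Sox5* had 6, 37 and 13 peaks on these days, and *Sox6* had 7, 24 and 16. Of the matrix genes, *Comp* had 5, 25 and 6 peaks, *Matn1* had 0, 12 and 11, *Acan* had 1, 2 and 1, and *Hapln1* had 0, 2 and 1. *Pthlh* had 4 peaks at day 0 and 2 on each later day, and was the only member with fewer peaks at day 9 than at day 0.

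**Figure D1:**
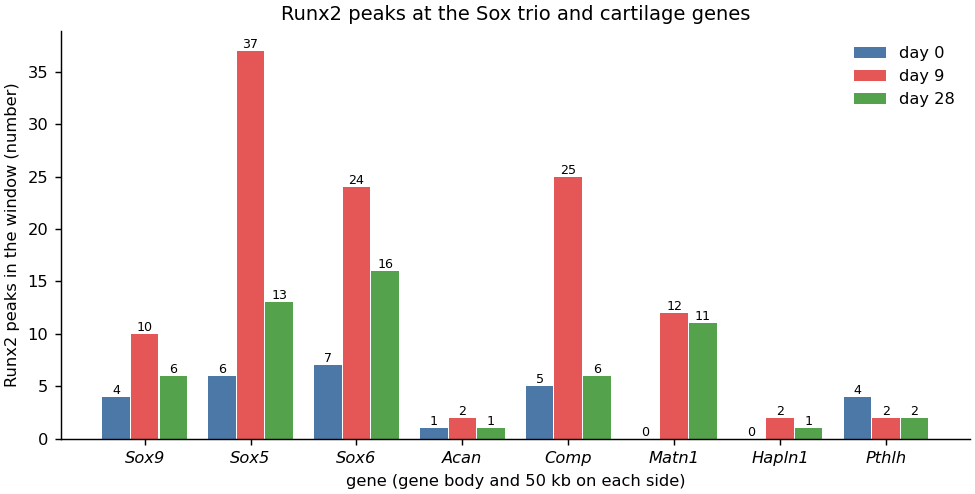
Number of Runx2 peaks (vertical axis) in the window of each gene, its body and 50 kb on either side, in the pooled lists of day 0 (blue), day 9 (red) and day 28 (green). *Sox5* and *Comp* show the largest numbers at day 9, with 37 and 25 peaks, *Matn1* has no bar at day 0, and *Pthlh* alone has its tallest bar at day 0.

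Over the 8 genes there were 4.22 times as many peaks at day 9 as at day 0, with a 95% interval of 2.76 to 6.68 that covers counting error only, against 2.38 times in the whole lists. Day 28 had 0.491 times as many peaks as day 9 (0.35 to 0.682), against 0.666 times in the whole lists. The size of these ratios depended on which peaks were counted. With an equal number of top-scoring peaks taken from each list, the day 9 to day 0 ratio of member peaks was 1.48 and the day 28 to day 9 ratio was 0.775, each against 1 by construction in the whole lists. Among peaks with a score of 500 or more, the day 9 to day 0 ratio was 10, from 30 against 3 peaks, beside 2.91 in the whole lists, and this fixed cut does not allow for the depth of each list.

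Most of these differences between days were in the direction that is common among all genes. At day 0, 6 of the 8 genes had at least 1 peak in the window, and all 8 did at day 9 and at day 28, while among all protein-coding genes the shares were 73.8%, 83.2% and 78.4%. More peaks at day 9 than at day 0 were found for 7 of 8 members and for 71.9% of all genes. Fewer peaks at day 28 than at day 9 were found for 7 of 8 members, all but *Pthlh*, and for 62.8% of all genes. The patterns of *Pthlh* and of the pair *Matn1* and *Hapln1* are less common. Of all genes, 4.01% had fewer peaks at day 9 than at day 0, as *Pthlh* had, and 10.4% had none at day 0 but at least 1 at day 9, as *Matn1* and *Hapln1* had.

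The windows differ in length, since *Sox5* spans 953.6 kb and *Sox6* 567.4 kb but *Sox9* 5.537 kb. Per 100 kb of window, the median over the 8 genes was 0.835, 3.55 and 2.09 peaks on the 3 days, beside 1.63, 3.52 and 2.42 over all genes. At day 9 *Comp* had 23 peaks per 100 kb, a density at percentile 99.3 of all genes, *Matn1* had 10.8 (percentile 87.1) and *Sox9* had 9.48 (83.4). *Sox5*, with 3.51, and *Sox6*, with 3.6, were near the middle of all genes, at percentiles 49.9 and 50.6. *Pthlh*, *Acan* and *Hapln1* were lower, with 1.78, 1.24 and 1.17 peaks per 100 kb. At day 28 the highest density among the members was that of *Matn1*, 9.9 peaks per 100 kb, at percentile 94.8.

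Among all 126 member regions, day 9 alone was the most common pattern, but not among high-scoring peaks. Of the 126 regions, 61 (48.4%, 95% interval 39.4% to 57.5%) had a peak at day 9 only, against 34.5% of all regions, and 16 (12.7%, 7.44% to 19.8%) had peaks at all 3 time points, against 27.4%. Peaks at days 9 and 28 but not 0 were found in 31 regions (24.6%, against 21.1%). A further 8 regions were of day 28 alone (6.35%, against 7.59%), 7 of day 0 alone (5.56%, against 5.6%), 2 of days 0 and 9 (1.59%, against 1.69%) and 1 of days 0 and 28 (0.794%, against 2.06%). Regions of 1 gene lie close together, and the intervals do not allow for this. In the 12 alternative settings of score, window and overlap, the share of day 9 alone was above that of all regions each time and the share of all 3 days was below it each time. The order of the patterns among the members did not hold in each of them. When each list was limited to the same number of its highest-scoring peaks, 20.4% of the member regions were of day 9 alone, 22.2% of days 9 and 28, and 24.1% of all 3 days. With scores of 500 or more, 37.5% were of day 9 alone and 46.9% of days 9 and 28.

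**Figure D2:**
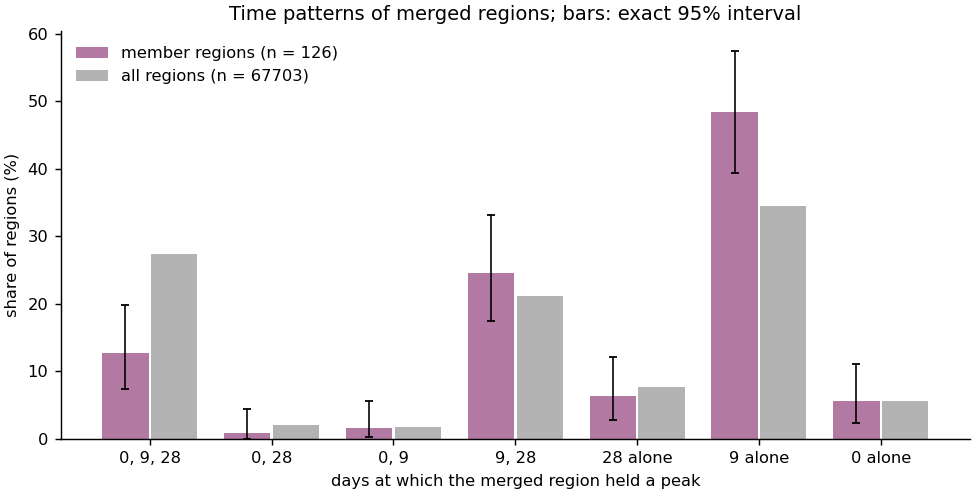
Share of merged regions (vertical axis, %) by the days on which they held a peak, for the 126 regions at the Sox trio and cartilage genes (purple, with exact 95% intervals) and for all 67703 regions (grey). The purple bar is taller for day 9 alone (48.4% against 34.5%) and shorter for all 3 days (12.7% against 27.4%).

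The members' peaks had modest scores. Their median percentile was 35.3, 45.6 and 40.5 in the lists of days 0, 9 and 28, where 50 is the middle of a list. In the 16 regions with peaks on all 3 days, the median percentile was 35.3 at day 0, against 58.8 for all day 0 peaks in such regions, while at days 9 and 28 it was 73.8 and 73.6, against 76.8 and 72.1. A score of 3100 or more was reached by 0, 5 and 1 member peaks on the 3 days. Of the 5 at day 9, 3 lay at *Comp* or its neighbour, 1 in *Sox5* and 1 beyond *Sox6*.

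*Sox9* (ENSMUSG00000000567, chromosome 11 from 112643538 to 112649074, plus strand) is 5.537 kb long and has no other protein-coding gene in its window. Runx2 bound at its start on all 3 days. The region extended from 112642367 to 112644541, across the annotated start, and its highest scores were 379.93, 1572.43 and 1552.06 in the order of the days, at percentiles 63.4, 87.6 and 86.8 of the respective lists. At day 9 a peak from 112642947 to 112644466 lay over exon 1 with its centre 168 bp past the start, and a smaller one from 112642367 to 112642944 was centred 883 bp before it. At day 0 the pair of peaks ran from 112642527 to 112643835 and from 112643912 to 112644515, and at day 28 there was 1 peak from 112642397 to 112644541. The 150 bases just before the start, which the peaks of all 3 days cover, hold no copy of TGTGGT, the core of the sequence that Runx2 recognises, on either strand. Of all protein-coding genes, 7.65% hold it in the 150 bases before the 5′ end. Elsewhere in the region the core was present on each day. At day 0 a copy lay 326 bp from the centre of the first peak of the pair. At day 9 one lay 200 bp from the centre of the smaller peak, and at day 28 one lay 614 bp from the centre. The 150 bases before the *Sox9* start are shown on the strand of the gene, from chr11:112643388-112643537.
Sox9 before the start: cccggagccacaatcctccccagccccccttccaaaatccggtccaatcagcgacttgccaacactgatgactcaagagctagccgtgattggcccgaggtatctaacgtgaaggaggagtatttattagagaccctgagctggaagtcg

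With 4 further regions, the region at the start formed a group of 5 within 12.3 kb. Exon 3 carried a peak at day 9, from 112646003 to 112646746 with a score of 957.89 (percentile 79.8), and at day 28, from 112645867 to 112646706 with a score of 237.52 (percentile 38.9). Both were centred within 1 kb of the start of the shorter annotated transcript Sox9-201. Upstream, the region from 112634461 to 112635133, 8.74 kb before the start, had a peak on all 3 days, with scores of 106.6, 541.05 and 178.35 at percentiles 3.41, 68.9 and 28. It held TGTGGT within 50 bp of the centre of the peak of each day. A region 6.45 kb before the start had peaks at days 9 and 28 only, with scores of 244.34 and 140.94, and a region 2.32 kb before it had a peak of 157.18 at day 9 alone. The day 9 centre of the former, chosen after its values were seen, is shown because it holds the core 7 bp from the middle. It is read on the plus strand of chr11:112636883-112636983, where the capitals mark ACCACA, the core on the opposite strand.
Sox9 6.45 kb upstream: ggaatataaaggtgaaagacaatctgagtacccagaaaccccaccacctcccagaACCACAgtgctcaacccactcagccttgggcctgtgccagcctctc

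*Sox5* (ENSMUSG00000041540, chromosome 6 from 143776945 to 144730497, minus strand) is the longest of the 8 genes and had the most peaks. Its window holds no other protein-coding gene, and 34 of its 37 day 9 peaks lay inside the gene body. The 5′ end of the gene belongs to a transcript annotated as noncoding, Sox5-009, and the coding transcripts start 572 and 835 kb further in. Of its 41 regions, 25 had a peak at day 9 alone, 8 at days 9 and 28, and 3 on all 3 days. These patterns made up 34.5%, 21.1% and 27.4% of all regions.

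The region at the 5′ end of *Sox5*, from 144729693 to 144730895, was bound on all 3 days. The peak of day 0 (144729693 to 144730576) scored 125.32, that of day 9 (144729817 to 144730616) 477.91 and that of day 28 (144729886 to 144730895) 317.33, at percentiles 12.5, 66.2 and 48.6. The other pair of regions present on all 3 days lay in introns 11 and 8 of the coding transcript Sox5-005. In intron 11 (143792270 to 143793535) the scores of the 3 days were 775.42, 505.87 and 382.33, and the percentiles 85.8, 67.5 and 54.2, highest on the first of these days. In intron 8 (143863823 to 143865659) the scores were 339.96, 280.77 and 964.44, at percentiles 59, 51.8 and 77.3. These intronic regions thus had their highest percentiles on different days. The 150 bases before the 5′ end, chr6:144730498-144730647, are shown on the strand of the gene and hold no TGTGGT on either strand but long runs of alternating G and A.
Sox5 before the 5′ end: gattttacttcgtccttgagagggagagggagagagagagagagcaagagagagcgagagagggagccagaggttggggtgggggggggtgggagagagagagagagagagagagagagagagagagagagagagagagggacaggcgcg

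Arrays of the core sequence lay under *Sox5* peaks. TGTGGT, or its reverse complement ACCACA, occurred within 50 bp of the centre of 20 of the 37 day 9 peaks (54.1%, 95% interval 36.9% to 70.5%), beside 25.3% of all day 9 peaks. Of these 37 peaks, 9 held at least 4 copies within 250 bp of the centre (24.3%), beside 5.52% of all day 9 peaks. None of the 6 day 0 peaks of *Sox5* did, and 0.856% of all day 0 peaks did. At day 28 it was 3 of 13, beside 2.1% of all day 28 peaks. In each of the 9 arrays every copy had the same orientation. An array past the 3′ end lay 14 kb from the gene, and the other 8 were intronic. Peaks at day 9 alone were found for 6 arrays and peaks at days 9 and 28 for 3.

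The highest-scoring day 9 peak of *Sox5* (144483610 to 144484413) in intron 3 of Sox5-009 reached the score of 3100 shared by many peaks (percentile 97.4) and held 12 copies of the core. At day 28 the peak there (144483636 to 144484445) scored 603.91 (percentile 66.5). An array of 13 copies lay under the day 9 peak from 144549633 to 144550227 in intron 2, with a score of 1512.67 (percentile 87), and 232.45 (percentile 38.1) at day 28. The day 9 peak from 144441170 to 144441727 in intron 3 held 6 copies spaced 41 bp apart, with a score of 718.54 (percentile 74.7), and 217.49 (percentile 35.6) at day 28. A peak of day 9 alone, from 144607788 to 144608321 in intron 1 with a score of 299.43, held 4 copies spaced 34 bp apart. In each of the 3 arrays bound on both days, the percentile was lower at day 28 than at day 9. Sequence from these 4 peaks is given on the plus strand with ACCACA, the core read on the opposite strand, in capitals, because their spacing can be read from the letters. The arrays were noticed, and these examples chosen, after the values were seen. The top peak is shown by the bases within 50 bp of its centre (chr6:144483961-144484061), and the other 3 from the first to the last copy of a dense stretch (chr6:144549852-144550050, chr6:144441291-144441501 and chr6:144608049-144608156).
Sox5 intron 3, top peak: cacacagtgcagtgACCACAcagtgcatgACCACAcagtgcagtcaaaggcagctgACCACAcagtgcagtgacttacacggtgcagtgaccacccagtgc
Sox5 intron 2 array: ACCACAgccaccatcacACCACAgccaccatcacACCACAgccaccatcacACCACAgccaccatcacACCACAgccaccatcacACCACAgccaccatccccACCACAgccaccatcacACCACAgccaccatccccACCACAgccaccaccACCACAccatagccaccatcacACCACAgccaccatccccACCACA
Sox5 intron 3 array: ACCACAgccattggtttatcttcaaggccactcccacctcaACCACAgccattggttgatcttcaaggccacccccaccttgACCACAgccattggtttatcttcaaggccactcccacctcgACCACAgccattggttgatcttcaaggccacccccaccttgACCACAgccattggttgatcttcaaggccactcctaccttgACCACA
Sox5 intron 1 array: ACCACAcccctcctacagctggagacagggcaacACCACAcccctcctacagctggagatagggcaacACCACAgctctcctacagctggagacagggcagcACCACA

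The arrays differ in the length and letters of their units. In intron 2 a unit of about 17 bp was repeated, with 9 of 12 gaps between neighbouring copies at 17 bp to within 1 bp. In the 6-copy array of intron 3 all 5 gaps were 41 bp, and in intron 1 all 3 gaps were 34 bp. Another array of intron 3 had all 3 gaps within 1 bp of 62 bp. Not every array was so even. In the top peak 3 of 11 gaps lay within 1 bp of the commonest length, 27 bp, and in an array of 9 copies in intron 3 it was 3 of 8, at 10 bp. Outside the 9 array peaks, 11 of the other 28 day 9 peaks of *Sox5* held the core near the centre (39.3%). The share over all day 9 peaks without such arrays was not computed, and the 25.3% of all day 9 peaks includes them. Reads over these repeats and the input signal there were not analysed here, so the part of read mapping in the peaks was not tested.

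**Figure D3:**
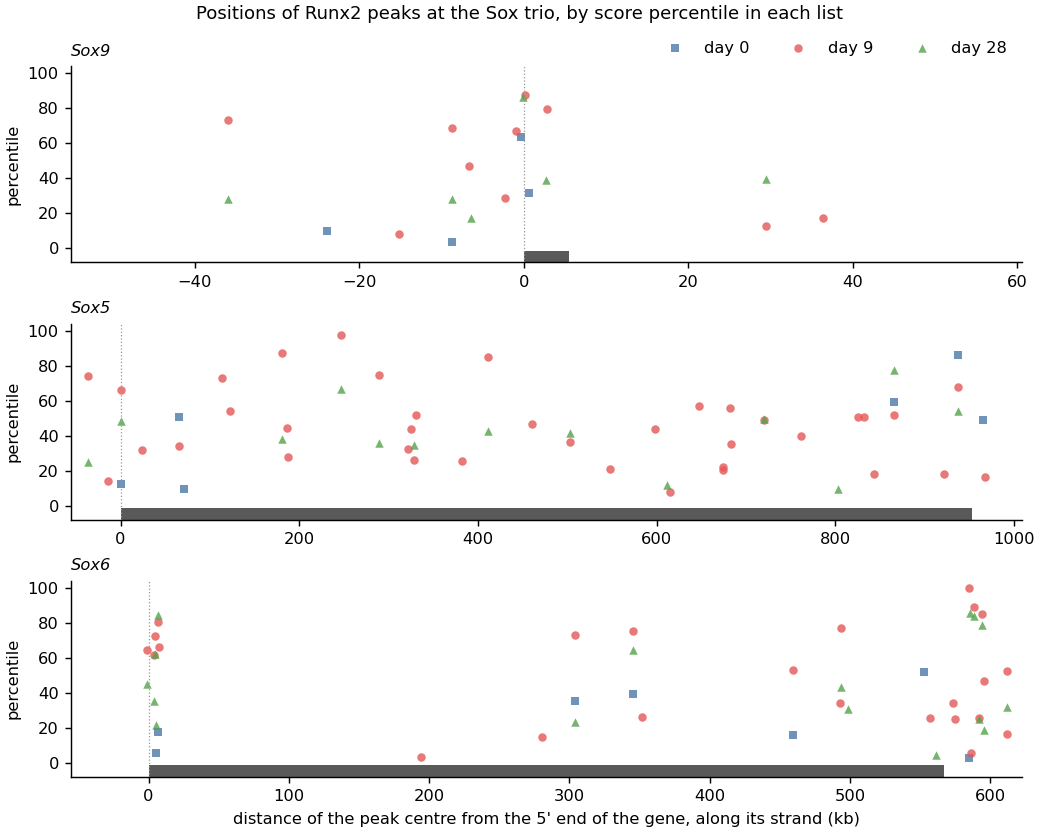
Runx2 peaks at *Sox9*, *Sox5* and *Sox6* by the distance of the peak centre from the 5′ end along the gene (horizontal axis, kb) and by score percentile in the list of day 0 (blue squares), day 9 (red circles) and day 28 (green triangles). Dark bars show the gene bodies. *Sox9* peaks gather at the start, *Sox5* peaks are spread over the gene, and *Sox6* peaks gather at the start and beyond the 3′ end, where the day 9 peak of score 3233.06 lies.

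*Sox6* (ENSMUSG00000051910, chromosome 7 from 122614858 to 123182258, minus strand) had its highest-scoring Runx2 peaks of days 9 and 28 past its 3′ end, while that of day 0 lay in intron 15. A group of 6 regions lay within 11.3 kb, from 122586190 to 122597467, where the nearest annotated coding start in either direction is that of *Sox6* itself. The region closest to the gene in this group, from 122596111 to 122597467, was centred 18.1 kb past the 3′ end. At day 9 its peak (122596486 to 122597408) scored 3233.06, the highest value in the day 9 list, which it shared with 5 others. Whether it stood above the peaks tied at 3100 was not tested. At day 0 the peak from 122596793 to 122597447 scored 104.79, close to the threshold (percentile 2.45), and at day 28 the whole region scored 1432.85 (percentile 85.4). The regions from 122593381 to 122594411 and from 122587655 to 122588701 had no day 0 peak and scored 1755.96 and 1336.98 at day 9 (percentiles 89.2 and 85.3) and 1307.3 and 1029.62 at day 28 (83.7 and 78.9). Within this group 5 of the 6 regions therefore had no peak at day 0. The bases within 50 bp of the centre of the top day 9 peak, on the plus strand of chr7:122596897-122596997, hold no TGTGGT.
Sox6 beyond the 3′ end: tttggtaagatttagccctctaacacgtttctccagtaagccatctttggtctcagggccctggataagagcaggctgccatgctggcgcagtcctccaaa

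Near the 5′ end of *Sox6*, Runx2 peaks gathered in intron 1. The region from 123174127 to 123176433 had a peak on all 3 days. It overlaps the start of a coding transcript 7.7 kb into the gene, and the gene 1110006G14Rik starts inside it as well, so its peaks cannot be told apart between the pair of genes. Its highest scores in the order of the days were 136.98 (percentile 17.5), 987.12 (80.3) and 1357.25 (84.3). A second, smaller day 9 peak (123174217 to 123175009, score 477.95) was centred 52 bp before that transcript start. Nearby, the region from 123176887 to 123177717 was also bound on all 3 days, with scores of 110.84, 632.28 and 516.42. No peak centre came within 1 kb of the outer 5′ end, where the nearest region, from 123183119 to 123184148, lay 1.38 kb before it and had peaks at days 9 and 28 of 441.29 and 285.98.

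Further inside *Sox6*, beyond intron 1, 2 intronic regions were bound on all 3 days. In intron 5, from 122836763 to 122837446, the scores were 214.51, 747.98 and 556.85, at percentiles 39.3, 75.5 and 64.3. In intron 4, from 122877622 to 122878192, they were 197.23, 665.28 and 161.01, at percentiles 35.3, 73.1 and 23.5. The highest-scoring day 0 peak of *Sox6*, in intron 15 from 122629015 to 122629997 with a score of 282.55, had no counterpart at days 9 or 28. TGTGGT lay near the centre of 7 of the 24 day 9 peaks of *Sox6* (29.2%), a share close to that of all day 9 peaks.

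*Acan* (ENSMUSG00000030607, chromosome 7 from 86198369 to 86259985, plus strand), the gene of the aggrecan core protein, had no Runx2 peak over its body on any day. The 2 regions of its window lay past its 3′ end and nearer to other genes. One of day 9 alone (86268846 to 86269777, score 259.74) was nearest to the start of *Hapln3*, another link protein gene. The region from 86293544 to 86294320 covered the start of *Mfge8*, a secreted glycoprotein gene, with scores of 270.49, 1119.15 and 819.72 on the 3 days. Within the window *Acan* had 0 peaks nearest to its own start on each of the 3 days. Upstream beyond it, the stretch up to *Isg20* held 1, 5 and 3 peaks, of which the highest-scoring at day 9 (86135126 to 86135672, score 797.96) lay 63 kb before the *Acan* start.

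*Comp* (ENSMUSG00000031849, chromosome 8 from 72897447 to 72905964, plus strand) encodes cartilage oligomeric matrix protein and had the most peaks per 100 kb of the 8 genes at day 9 when every peak of the window is counted. With only peaks nearest to the gene's own start it had 9.22 per 100 kb, below the 9.48 of *Sox9*. The highest scores nearest to its own start lay in a pair of regions just upstream, both bound on all 3 days. The region from 72895324 to 72896593, 1.49 kb before the start, had a day 0 peak of 1072.55 (72895433 to 72896593, percentile 91.9), a day 9 peak of 3100 (72895405 to 72896496) and a day 28 peak of 2904.67 (72895324 to 72896506, percentile 95.4). The region from 72893829 to 72895053, 3.01 kb before the start, had a day 0 peak of 127.15 (percentile 13.4), a day 9 peak of 3100 (72894175 to 72895053) and a day 28 peak of 1420.69 (percentile 85.2). These neighbours stood far apart in the day 0 list. Their day 9 score of 3100 is the value shared by many peaks and gives no order between them. A region 9.32 kb before the start (72887626 to 72888635) was also bound throughout, with scores of 139.24, 566.28 and 810.79. None of the peaks was centred within 1 kb of the *Comp* start. The centre of the nearer 3100 peak, chr8:72895900-72896000 on the plus strand, holds no TGTGGT.
Comp 1.5 kb upstream: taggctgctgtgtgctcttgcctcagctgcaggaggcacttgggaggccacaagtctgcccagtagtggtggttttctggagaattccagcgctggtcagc

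The *Comp* window is crowded with other genes, *Lass1*, *Gdf1*, *Upf1* and *Crtc1*, and its peaks are shared among them. At day 9, 10 of the 25 peaks had the *Comp* start as the nearest, and at days 0 and 28 it was 3 of 5 and 3 of 6. The highest-scoring peaks of days 0 and 28 in the window lay over the start of *Upf1*, the helicase of nonsense-mediated decay (72875921 to 72877730, with scores of 1382.08, 3100 and 3100). Across the window 19 of 26 regions had a peak at day 9 alone, against 34.5% of all regions. Both regions inside the *Comp* body, in introns 3 and 14, were among the 19, with scores of 167.3 and 252.37. One region of day 9 alone, 47.2 kb past the 3′ end of *Comp* and nearest to the *Crtc1* start, held 14 copies of the core in a peak of score 227.84 (72952583 to 72953778). A stretch with 7 of them, chr8:72952827-72953065 on the plus strand, also chosen after its values were seen, shows a repeated unit of other letters than those of *Sox5*, again with ACCACA in capitals.
Comp window array: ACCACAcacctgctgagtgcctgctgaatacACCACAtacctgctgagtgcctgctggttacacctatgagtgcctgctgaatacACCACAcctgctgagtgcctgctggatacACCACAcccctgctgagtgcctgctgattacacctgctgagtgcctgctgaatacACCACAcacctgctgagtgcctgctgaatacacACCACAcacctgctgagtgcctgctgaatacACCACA

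*Matn1* (ENSMUSG00000040533, chromosome 4 from 130500300 to 130511390, plus strand), which encodes the cartilage matrix protein matrilin, had no peak (0) at day 0 but 12 and 11 peaks on the later days. Its 14 regions comprised 8 of days 9 and 28, 3 of day 9 alone and 3 of day 28 alone. These patterns made up 21.1%, 34.5% and 7.59% of all regions. No peak lay over the *Matn1* body on any day. Of the 12 day 9 peaks and the 11 day 28 peaks, 5 each had the *Matn1* start as the nearest, and the others were nearest to *Laptm5*, a lysosomal membrane protein gene best known from blood cells. The region with the highest scores of the window, from 130455352 to 130456359, was 13.2 kb before the start of *Laptm5*, with scores of 1215.03 at day 9 and 1479.71 at day 28. Closest to *Matn1* were regions 3.56, 4.54 and 6.58 kb before its start. The middle one, from 130495320 to 130496206, had the highest scores among peaks nearest to *Matn1*, 683.65 at day 9 (130495479 to 130496066, percentile 73.7) and 905.28 at day 28 (percentile 75.9). The farthest of these 3 scored 649.02 and 515.49 and held the core less than 50 bp from the middle of the peak on both days. The centre of the middle one at day 9, chr4:130495722-130495822 on the plus strand, holds none, and the nearest copy was 83 bp away.
Matn1 4.5 kb upstream: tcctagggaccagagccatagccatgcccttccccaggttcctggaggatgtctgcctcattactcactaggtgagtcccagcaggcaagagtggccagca

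*Hapln1* (ENSMUSG00000021613, chromosome 13 from 89680241 to 89751437, plus strand) encodes the link protein that fixes aggrecan to hyaluronan and had 0, 2 and 1 peaks. Runx2 bound its start at days 9 and 28. The day 9 peak from 89679894 to 89680540 was centred 24 bp before the start with a score of 388.87 (percentile 61.2), and the day 28 peak from 89680142 to 89680551 was centred 105 bp past it in exon 1, with a score of 144.67 (percentile 18.9). The second day 9 peak, of score 201.1, lay 10.4 kb into the gene in intron 1. The 150 bases before the start (chr13:89680091-89680240, strand of the gene), which the day 9 peak covers, hold no TGTGGT. Outside this stretch the day 9 peak held 2 copies, the nearer 129 bp from its centre, and the day 28 peak held 1, at its centre.
Hapln1 before the start: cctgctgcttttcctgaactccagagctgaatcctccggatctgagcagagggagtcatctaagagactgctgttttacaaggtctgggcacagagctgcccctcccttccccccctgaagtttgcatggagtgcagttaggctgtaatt

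*Pthlh* (ENSMUSG00000048776, chromosome 6 from 147200623 to 147212689, minus strand) had more peaks at day 0 than on the later days within its 50 kb window, but not in the wider stretch between its coding neighbours *Klhdc5* and *Ccdc91*, which held 6, 13 and 8 peaks on the 3 days. In the window it had 5 regions, of which 2 were of day 0 alone, 1 of days 0 and 28, 1 of day 9 alone and 1 of all 3 days. These patterns made up 5.6%, 2.06%, 34.5% and 27.4% of all regions. The region bound throughout, from 147216739 to 147217619, lay 4.49 kb before the start and had the highest score of the window on each day, 403.28 (percentile 65.6) in the day 0 list, 712.29 (147216847 to 147217450, percentile 74.6) in the day 9 list and 710.9 (147216844 to 147217550, percentile 70.4) in the day 28 list. The regions of day 0 alone lay 2.72 and 13.6 kb before the start, with scores of 177.07 and 207.49. Intron 2 carried a peak of 271.78 at day 0 and of 109.04 at day 28. Between the distal ones, 10.8 kb before the start, a peak of day 9 alone from 147223204 to 147223718 had a score of 651.07 (percentile 72.8) and held 3 copies of the core. The centres of both day 9 peaks are given on the plus strand, the one bound throughout (chr6:147217098-147217198) without the core and the day 9 one (chr6:147223411-147223511) with TGTGGT in capitals. The latter was chosen after its values were seen.
Pthlh 4.5 kb upstream: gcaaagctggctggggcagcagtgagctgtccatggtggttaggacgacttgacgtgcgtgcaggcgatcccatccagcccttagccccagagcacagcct
Pthlh 10.8 kb upstream: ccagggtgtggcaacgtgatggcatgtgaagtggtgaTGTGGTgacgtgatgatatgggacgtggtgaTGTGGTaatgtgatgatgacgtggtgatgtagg

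**Figure D4:**
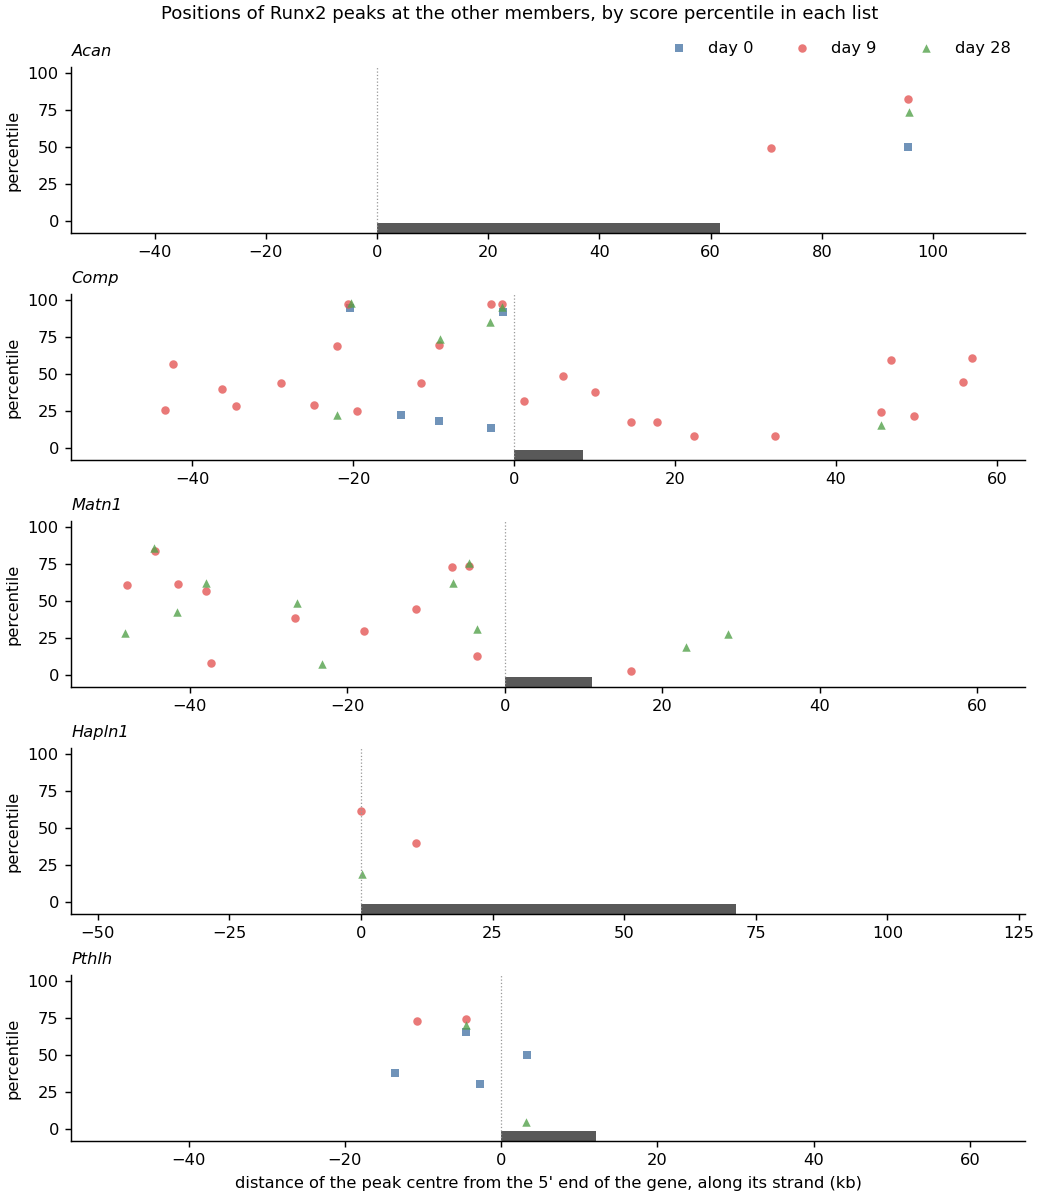
Runx2 peaks at *Acan*, *Comp*, *Matn1*, *Hapln1* and *Pthlh* by the distance of the peak centre from the 5′ end along the gene (horizontal axis, kb) and by score percentile in the list of day 0 (blue squares), day 9 (red circles) and day 28 (green triangles), with gene bodies as dark bars. The bodies of *Acan* and *Matn1* carry no peak, *Matn1* and *Hapln1* have no day 0 square, and *Comp* peaks at high percentiles lie just before its start.

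Peaks right at the outer 5′ end were found for 2 of these 8 genes at day 0 and 3 on the later days. In *Sox5* this end belongs to a noncoding transcript, and the day 9 peak 52 bp before an inner coding start of *Sox6* is not counted. A peak centred within 1 kb of the 5′ end was found at day 0 for *Sox9* and *Sox5* and at days 9 and 28 for *Sox9*, *Sox5* and *Hapln1*, against 40.2%, 49.4% and 47.4% of all genes on the 3 days. Peaks over the gene body were found for 4 members at day 0 (*Sox9*, *Sox5*, *Sox6* and *Pthlh*), where 48.9% of all genes had one. At day 9 it was 5 members, with *Comp* and *Hapln1* and without *Pthlh*, against 62.5% of all genes, and at day 28 again 5, with *Pthlh* and without *Comp*, against 57.2%. Each peak was also assigned to the nearest start of a protein-coding gene. Starts were those of coding transcripts and the 5′ end of each gene, which for *Sox5* is that of a noncoding transcript. In this way 22 of the 27 day 0 peaks, 87 of the 114 day 9 peaks and 42 of the 56 day 28 peaks belonged to the member itself.

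The core sequence was unevenly spread among the members, and most day 9 peaks that held it near the centre lay in *Sox5*. Within 50 bp of the centre, TGTGGT occurred on either strand in 2 of 27 member peaks at day 0 (7.41%, 95% interval 0.91% to 24.3%), in 33 of 114 at day 9 (28.9%, 20.8% to 38.2%) and in 17 of 56 at day 28 (30.4%), against 16% of all day 0 peaks, 25.3% of all day 9 peaks and 20.9% of all day 28 peaks. Windows of the same length, 450 to 550 bp from the centre, held it in 8.77% of cases for the members' day 9 peaks and in 7.32% for all day 9 peaks. *Sox5* gave 20 of the 33 day 9 peaks with the core, and without *Sox5* the share was 16.9% (13 of 77). *Comp* had 2 of 25 (8%), *Matn1* 1 of 12 (8.33%) and *Sox9* 2 of 10 (20%). Day 9 peaks whose nearest start was the member's held it in 31 of 87 cases (35.6%), and those nearest to another gene in 2 of 27 (7.41%). All 37 *Sox5* peaks are among the former, and without them the share was 11 of 50 (22%). By time pattern it was found in 2 of 18 day 9 peaks of regions bound on all 3 days (11.1%, against 15.8% of all such peaks), 12 of 33 in those of days 9 and 28 (36.4%, against 27.5%), and 17 of 61 in those of day 9 alone (27.9%, against 32.3%). The shares over all peaks lie within the members' 95% intervals for each of these 3 patterns, and the lowest share, in regions bound throughout, is found over all peaks as well. Peaks of the same gene are not independent, and the lists give no summits, so the centre is the midpoint of a peak. The comparison with all peaks turned with the distance allowed. Within 250 bp of the centre the core was found in 46.5% of the members' day 9 peaks and in 53.1% of all.

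**Figure D5:**
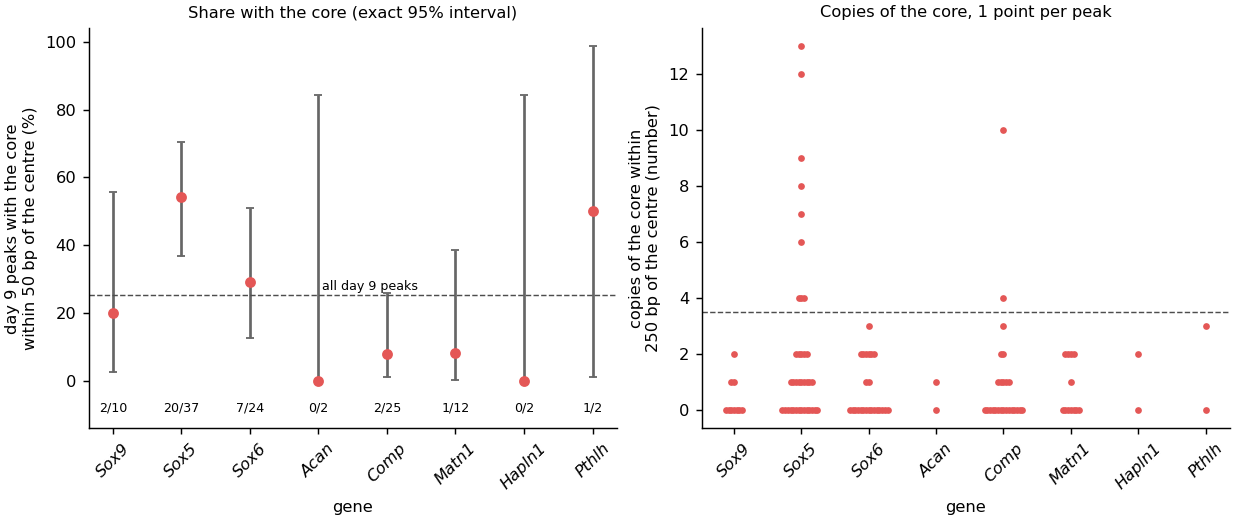
Left, share of day 9 peaks (vertical axis, %) with the core sequence within 50 bp of the centre for each gene, with exact 95% intervals, the numbers behind each share, and a dashed line at the 25.3% of all day 9 peaks. Right, copies of the core within 250 bp of the centre of each day 9 peak. Points above the dashed line have 4 copies or more, and 9 of them belong to *Sox5* and 2 to *Comp*.

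The other genes of the cartilage programme, a list of 24 that included *Col2a1*, the collagens IX, X and XI, *Matn3*, *Ihh* and *Fgfr3*, were counted in the same way. At day 0, 17 of the 24 had a peak in the window, at day 9 all 24 and at day 28 all but 1. Among all protein-coding genes the shares were 73.8%, 83.2% and 78.4%. The 24 genes had medians of 2, 4 and 4 peaks. *Col2a1*, the main collagen of cartilage, had 8, 17 and 11 peaks, and *Sox8*, the close relative of *Sox9*, had 1, 23 and 11. *Pth1r*, the receptor for the Pthlh signal, had 7, 34 and 19 peaks, the largest numbers of the list at day 9 and day 28. These 3 lie above the median of the list at day 9, and at its lower end *Epyc* and *Nkx3-2* had 0, 1 and 1 peaks each. More peaks at day 9 than at day 0 were found for 22 of the 24, against 71.9% of all genes. The exceptions were *Col11a1* (2, 2 and 4) and *Cytl1* (2, 2 and 1). Per 100 kb the list had medians of 1.67, 3.56 and 2.93 peaks, close to those of all genes, 1.63, 3.52 and 2.42.

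Among 12 genes of the osteoblast lineage, every gene had peaks on each day, against 73.8%, 83.2% and 78.4% of all genes. The 12 genes had medians of 5, 14.5 and 12 peaks and 3.58, 9.64 and 9.62 peaks per 100 kb. *Col1a1*, the main collagen of bone, had 12, 33 and 22 peaks and *Sp7*, a transcription factor required for osteoblasts, had 11, 19 and 14. Per 100 kb, the median over the 8 cartilage members at day 9, 3.55, was below that of the osteoblast genes, and so was the value of *Sox9*, 9.48, while *Comp* and *Matn1* lay above it at 23 and 10.8. At day 28 *Matn1*, with 9.9 peaks per 100 kb, was the only member above the median of the osteoblast genes. These values count every peak of a window. With only peaks nearest to the member's own start, *Comp* had 9.22 at day 9 and *Matn1* had 4.5 on both later days, and on these days no member was above the osteoblast medians, which still count every peak.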

How the data were processed

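Runx2 ChIP-Seq was analysed in MC3T3-E1 subclone 4 on days 0, 9 and 28. Single-end reads were aligned to mm9 by the authors with Bowtie and peaks called with MACS against input DNA at p ≤ 1e-10, after 2 biological replicates per day had been pooled. Versions in the submitters' processing notes are Bowtie 0.12.8, CASAVA 1.6 and MACS 1.4.1. The deposited unit is the MACS score, 10 times −log10 p, in 3 lists, with positions converted here to 1-based. Pooling, the shared input of day 9 and unequal depth all affect which peaks reach the threshold. The depth of a list is not known from its values, but by the paper's raw reads day 0 was the deepest and day 28 the shallowest.

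Gene bodies were taken from GENCODE M1 and sequence from NCBIM37, the same assembly. The members and gene lists were chosen with earlier results of these data known. Peaks of the 3 lists that shared 1 bp or more were merged and grouped into 7 clusters by time point. The TGTGGT search covered either strand up to 50 bp from each centre. Places within a gene are by the transcript named. Intervals are exact binomial (Clopper-Pearson, 95%), and cover counting error only. With 1 list per day no test was possible. Named peaks are, for each member, the highest-scoring of each list, those centred within 1 kb of a start, and regions with peaks on all 3 days. Sequences are the centres of the highest-scoring day 9 peaks, left out over UTRs, and stretches before bound starts. Peaks, regions and sequences beyond this rule were chosen after their values were seen. Densities from peaks nearest to a member's own start, and the motif share of such peaks without *Sox5*, were added after the data were seen. Alternatives changed the score threshold, the window, the overlap, the number of peaks per list and the motif. Counting and merging were tested on simulated data. Scripts ran in Python 3.11.15 with SciPy 1.17.1 and NumPy 2.4.6, and figures were drawn with Matplotlib 3.10.9.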

Additional observations from a re-analysis of the deposited data

How the results depend on the processing

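Of 126 values recomputed under other settings, 96 stayed within the limits set for no change and 30 moved. The day 9 to day 0 ratio of member peaks was above that of the whole lists in 10 of 10 planned settings, with 1.48 (equal number of top-scoring peaks) and 10 (score of 500 or more, whole lists 2.91) as its moved values, and in 8 of 8 settings that left out a member (3.67 to 4.87). The day 28 to day 9 ratio was below that of the whole lists in 10 of 10 (moved value 0.775 with equal numbers) and in 8 of 8. Peak numbers moved by construction with the threshold and window. With scores of 200 or more they were 13, 66 and 34 at days 0, 9 and 28, in 73 regions, and with 500 or more they were 3, 30 and 19, in 32 regions. In gene bodies alone they were 14, 53 and 25, with 60 regions, within 10 kb 72 at day 9 and 35 at day 28 with 79 regions, and within 100 kb 41 at day 0. Equal numbers gave 40 at day 9 and 31 at day 28, with 54 regions, and leaving out peaks within 10 kb of another gene gave 75 at day 9. The share of day 9 peaks with TGTGGT was 46.5% within 250 bp (all peaks 53.1%). In alternatives added after the data were seen it was 16.9% without *Sox5* and 21.4% without peaks of 4 or more copies. For the latter the share over all day 9 peaks was not computed. No paired analysis was possible because replicates were pooled before peaks were called, and no replicate could be left out for the same reason. Depth limits what is absent: a region without a peak may lie just under the threshold.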

Other observations

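Runx2 peaks extended beyond the 50 kb windows into the stretches without coding genes around *Sox9* and *Sox5*. Between its coding neighbours *Gm11678* and *Slc39a11*, 813.2 kb apart, *Sox9* is the only protein-coding gene, and this stretch held 21, 53 and 31 peaks on days 0, 9 and 28, of which 17, 43 and 25 lay outside the 50 kb window. The highest-scoring day 9 peak of the stretch was 224 kb before the *Sox9* start, from 112419605 to 112420340 on chromosome 11 with a score of 1843.96, and that of day 0 was 281 kb past the start, from 112923986 to 112925747 with a score of 1111.38. At day 28 the highest score of the stretch was that of the peak at the *Sox9* start, 1552.06. Around *Sox5*, between *Etnk1* and *Bcat1* (1785 kb), there were 11, 56 and 30 peaks, and the highest-scoring day 9 peak lay 121 kb before the 5′ end (144850361 to 144852024 on chromosome 6, score 3104.76). Which gene such distant peaks act on was not tested.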
